A study of Mus musculus with 4 samples.

Results

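Mitochondria build a handful of respiratory chain proteins on their own ribosome and take in nearly all others from the cytosol, and the genes examined here encode both machines. They are the protein-coding genes named Mrpl, Mrps, Timm, Tomm or Pmpc, together with Hspd1, Hspe1, Tufm, Tsfm, Gfm1 and Gfm2, that appear in the authors' deposited tables of genes higher or lower with riluzole. There were 38 of them among 4295 listed genes: 23 of the mitochondrial ribosome, 12 of protein import, the chaperonin pair Hspd1 and Hspe1, and the translation factor gene Gfm2. The cells were CT26, a mouse colon carcinoma line of BALB/c origin, labelled wild type, and were given either DMSO, the solvent control, or 25 µM riluzole in culture for 24 h. Polyadenylated RNA was sequenced in 2 control and 2 riluzole libraries to learn how the drug changes the transcriptome, in a study whose title concerns cGAS-STING signalling and anti-PD-1 treatment. CT26 is 1 tumour cell line, and no label tells whether replicates 1 and 2 came from separate cultures, so p-values cover only the spread among these libraries, possibly a technical one.

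Only genes with p below 0.05 are in the tables, of 12601 genes that their p-values imply were tested. Membership therefore already used the contrast between riluzole and control, and the counts of changed genes below describe the members and support nothing. Listed genes held 9191717 to 12989475 counts per library, 57.2% to 63.2% of the totals per library that follow from FPKM. The 38 members had mean normalised counts of 222 to 25033, so none rested on few reads. Among markers of the line, Krt18 was listed at a mean of 25.0 FPKM and Krt8 at 0.298, whereas the epithelial genes Epcam and Cdh1 were not listed. Of the markers of other cells, Col1a1 was listed at 14.1 FPKM, and the leukocyte and endothelial genes Ptprc, Cd3e, Lyz2 and Pecam1 were not listed. An unlisted gene was not shown to be unchanged or silent.

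The mitochondrial ribosome has a small subunit, which reads the messenger RNA, and a large subunit, which joins the amino acids. All of its proteins are encoded in the nucleus, made in the cytosol and imported, so the ribosome itself depends on the import machine. Import runs through the TOM complex of the outer membrane and then through the TIM23 complex, which handles proteins with a cleavable presequence, or the TIM22 complex, which inserts carrier proteins into the inner membrane. Small TIM chaperones escort hydrophobic clients between the membranes, the matrix processing peptidase removes presequences, and the chaperonin of HSP60 and HSP10 folds newly imported proteins.

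Promoters of nuclear genes for mitochondrial proteins are known for motifs of NRF1, of ETS family factors such as GABP, and of YY1, and chaperonin genes for heat shock elements. Windows from 250 bases before to 50 after the start site, from RefSeq on build GRCm38.p6, were held for 33 of the 38 members and gave 40 windows. On either strand, GCGCANGCGC (NRF1) was found in 12.5% of them against 4.59% of 32817 windows of all genes, CCGGAAGT (ETS) in 17.5% against 3.89%, AAGATGGCG (YY1) in 12.5% against 1.40%, and CACGTG (E-box, bound by MYC and others) in 8 of the 40 against 7.15%. Windows that matched listed genes by name, 4296 in number, lay between these for each of those 4 motifs, at 9.78%, 7.61%, 2.98% and 10.3%. The median GC content was 59.0% in member windows, above the 52.7% of all windows and below the 61.3% of windows of listed genes, and the part of base composition in the motif shares was not tested. By class, NRF1 letters were found in 3 of 25 ribosome windows and 0 of 11 import windows, ETS letters in 5 and 2, YY1 letters in 4 and 1, and E-box letters in 5 and 2. These are matches of letters and not binding sites, some genes have several windows that share bases, and CT26 may differ from the reference strain.

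The stretches below run from 200 bases before to 30 bases after the start site and show 1 member of each kind. Hspe1 carries the heat shock element, TTCNNGAANNTTC, and its matches on the plus and minus strands overlap. This motif was found in 5.00% of member windows, 0.582% of windows of listed genes and 0.603% of all windows. The member windows with it were 2, of Hspd1 and Hspe1. They share 285 bases, so the same stretch was counted in both. Mrps26, the ribosomal gene with the smallest adjusted p, holds ETS letters and a pair of NRF1 matches that overlap each other, Mrps27 holds ETS and YY1, and Mrpl36, which rose, holds an E-box and YY1. Tomm70a and Timm50 stand for the import class, with ETS and YY1. Each is read 5′ to 3′ on the strand of its gene, on GRCm38.p6, and capitals mark the matched letters.
Hspe1 (chr1:55087948-55088177, plus strand): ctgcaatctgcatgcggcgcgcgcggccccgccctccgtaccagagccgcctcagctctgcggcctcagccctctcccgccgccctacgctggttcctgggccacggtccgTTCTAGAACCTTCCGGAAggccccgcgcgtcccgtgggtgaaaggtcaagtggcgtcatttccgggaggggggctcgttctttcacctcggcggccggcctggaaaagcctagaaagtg
Mrps26 (chr2:130563557-130563786, plus strand): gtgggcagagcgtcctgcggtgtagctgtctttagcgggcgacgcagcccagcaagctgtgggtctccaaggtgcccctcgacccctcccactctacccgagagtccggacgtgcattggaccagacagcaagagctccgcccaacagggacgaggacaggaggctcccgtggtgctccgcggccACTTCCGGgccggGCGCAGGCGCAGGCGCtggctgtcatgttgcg
Mrps27 (chr13:99344586-99344815, plus strand): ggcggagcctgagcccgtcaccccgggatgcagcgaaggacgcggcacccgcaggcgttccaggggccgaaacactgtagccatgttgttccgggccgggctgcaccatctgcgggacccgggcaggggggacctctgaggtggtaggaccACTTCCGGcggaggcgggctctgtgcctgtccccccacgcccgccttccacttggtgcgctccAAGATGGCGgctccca
Mrpl36 (chr13:73330809-73331038, plus strand): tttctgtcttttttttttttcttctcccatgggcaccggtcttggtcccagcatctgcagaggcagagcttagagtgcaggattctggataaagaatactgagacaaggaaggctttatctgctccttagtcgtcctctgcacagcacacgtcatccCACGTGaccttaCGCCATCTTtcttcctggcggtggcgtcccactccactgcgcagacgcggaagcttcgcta
Tomm70a (chr16:57121514-57121743, plus strand): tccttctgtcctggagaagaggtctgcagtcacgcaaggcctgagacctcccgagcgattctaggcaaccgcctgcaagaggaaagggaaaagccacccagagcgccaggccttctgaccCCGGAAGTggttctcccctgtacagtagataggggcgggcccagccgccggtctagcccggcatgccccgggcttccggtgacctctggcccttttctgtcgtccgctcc
Timm50 (chr7:28312017-28312246, minus strand): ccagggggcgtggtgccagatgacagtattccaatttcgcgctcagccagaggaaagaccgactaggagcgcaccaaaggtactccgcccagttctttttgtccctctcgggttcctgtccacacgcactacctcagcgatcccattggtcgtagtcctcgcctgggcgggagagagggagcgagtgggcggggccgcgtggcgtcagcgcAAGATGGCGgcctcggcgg

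With riluzole, 29 of the 38 members fell and 9 rose, and most changes were small. In RNA from bulk cultures, fewer cells with a transcript and less of it per cell cannot be told apart. The median log2 fold change over the 38 was -0.27, against -0.19 for all 4295 listed genes, and 76.3% of members lay lower against 58.6% of listed genes. The falls ran from -0.13 (Pmpca) to -0.50 (Timm22) and the rises from 0.22 (Tomm22) to 0.51 (Tomm40l). In the quasi-likelihood test of edgeR, with p adjusted by Benjamini-Hochberg over 12601 genes, all 38 passed at 0.05. As shares of the 12601 genes that the authors tested, edgeR calls, possible for listed genes only, were 19.8% lower and 14.1% higher. Nearly all of the 4295 listed genes passed, 2501 lower and 1772 higher, so a pass says little about the members. In the authors' deposited table, 16 members were lower and 4 higher at an adjusted p under 0.05. By that rule 1918 of the 4295 listed genes were lower and 1214 higher, which is 15.2% and 9.63% of tested genes. Both riluzole libraries lay on the same side of both controls for each of the 38 genes; among all listed genes, 5 overlapped. The members closest to the limit of listing were Gfm2 and Mrpl13, with p-values of 0.0483 and 0.0461 in the authors' deposited table, and no value is held for genes just outside it.

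How many members counted as lower depended on the scaling of the libraries. TMM factors over the listed genes shifted all log2 fold changes up by 0.10 and left 17 lower calls and 9 higher ones. DESeq2 size factors over the same genes moved them up by 0.17 and left 7 lower and 9 higher, with Pmpca (log2 fold change 0.04) and Mrpl13 (0.01) changing sign. The share of higher genes among all calls was 41.5% under the authors' size factors, 51.8% under TMM and 63.1% under DESeq2 factors. A scaling shifts all genes alike, so the gap between the median of the members and that of all listed genes is fixed by construction, at -0.27 against -0.19, -0.17 against -0.09, and -0.10 against -0.02. The genes called in the same direction under every scaling, test, filter and left-out library run were Hspd1, Hspe1, Timm22, Mrps22, Mrps26, Mrps31 and Mrpl35, which fell, and Mrpl15, Tomm22 and Tomm40l, which rose. TMM and DESeq2 factors shift all changes up, so they put no rise at risk. Tomm40l passed only barely in the authors' deposited table, at an adjusted p of 0.0499.

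**Figure D1:**
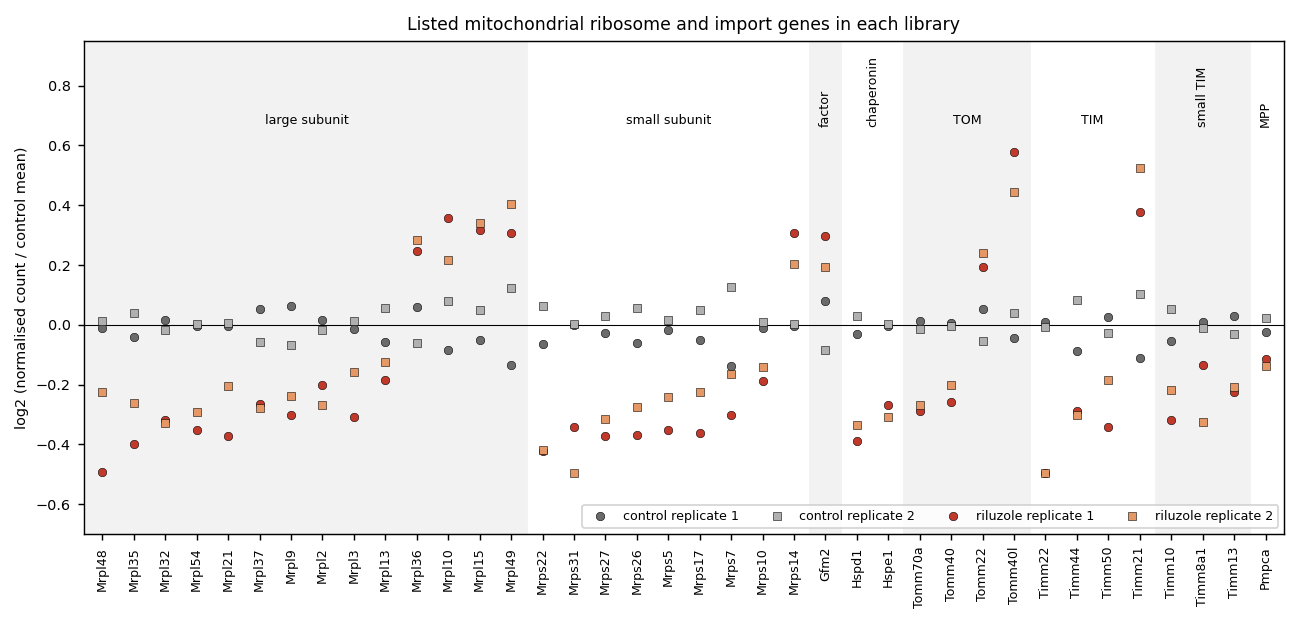
Log2 ratio of each library's normalised count to the mean of the 2 controls (vertical axis) for the 38 listed genes, grouped by role and ordered by fitted change within a role; each point is 1 library. The riluzole points of 29 genes lie below both controls and those of 9 lie above, with the 2 largest rises at Tomm40l and Timm21.

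The chaperonin pair carried the most RNA of all members per gene length. Hspd1 (chromosome 1, 55116994 to 55127402, mm39), which encodes the folding chamber HSP60, averaged 543 FPKM and Hspe1 (chromosome 1, 55127291 to 55130466), which encodes its lid HSP10, 194 FPKM. Replicates are given in the order 1, 2 throughout. Hspd1 had 27596 and 28733 normalised counts in the controls and 21493 and 22311 with riluzole. Both riluzole libraries lay well below both controls. Hspd1 fell by 22.2% (log2 fold change -0.36 ± 0.04, SE; edgeR Benjamini-Hochberg adjusted p 5.34e-08). Hspe1 went from 5492 and 5510 to 4566 and 4440, again with no overlap (log2 fold change -0.29 ± 0.04, edgeR Benjamini-Hochberg adjusted p 1.14e-06). The count of Hspe1 per count of Hspd1, which no scaling can change, was 19.9% and 19.2% in the controls and 21.2% and 19.9% with riluzole. The pair thus fell nearly in step, and riluzole replicate 2 was level with control replicate 1 in this ratio. The genes face away from each other and overlap by 112 bases at their starts, and 1 annotated start of Hspd1 has a promoter window that shares 285 bases with that of Hspe1. Hspd1 has a processed pseudogene 99.0% identical over 1722 bases and Hspe1 a copy 99.0% identical over 515, so their reads may be divided.

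Genes of the small ribosomal subunit mostly fell, 8 of 9 listed, with a median log2 fold change of -0.30. The annotation names 29 such genes, so 20 were not listed. By adjusted p in the authors' deposited table, 5 passed as lower and 0 as higher. By that rule 1918 of the 4295 listed genes were lower and 1214 higher. With edgeR, TMM left 6 lower calls and 1 higher, and DESeq2 size factors left 3 lower and 1 higher. Over all listed genes, lower calls also dropped, from 2501 to 1656 and 1042. Mrps26 (chromosome 2, 130405662 to 130410615), whose product has no bacterial counterpart, had 2036 and 2207 normalised counts in the controls and 1643 and 1753 with riluzole. The groups did not overlap, and the gene fell by 20.2% (log2 fold change -0.32 ± 0.05, edgeR Benjamini-Hochberg adjusted p 8.34e-06); part of its transcript is shared at 95% identity or more with many other transcripts. Mrps17 went from 2411 and 2582 to 1943 and 2135 and Mrps5 from 1665 and 1702 to 1319 and 1423, each a log2 fold change of -0.30; both encode proteins conserved from bacteria. Mrps22, a subunit specific to mitochondria, showed the deepest fall of the ribosome, from 664 and 725 to 518 and 519 (log2 fold change -0.42 ± 0.08, edgeR Benjamini-Hochberg adjusted p 7.86e-05). The riluzole libraries were almost equal there, while the controls were further apart. Mrps31, also specific to mitochondria, was nearly as low, from 663 and 664 to 524 and 470 (log2 fold change -0.41).

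The remaining falls in the small subunit were Mrps27 (log2 fold change -0.35), which encodes an RNA-binding pentatricopeptide protein, Mrps7 (-0.24) and Mrps10 (-0.17). Mrps5 and Mrps10 have a near-identical copy elsewhere in the genome, and Mrps27 and Mrps7 overlap exons of genes on the other strand. Mrps7, with Mrps26 the highest of the listed small subunit genes per length at 27.9 and 25.1 FPKM, had 992 and 1191 normalised counts in the controls and 886 and 973 with riluzole. Control replicate 1 and riluzole replicate 2 were close to each other there, and the call was lost in edgeR without control replicate 2 or without riluzole replicate 1. Mrps14 was the member that rose. It went from 775 and 779 to 962 and 894 normalised counts, a 1.20-fold rise (log2 fold change 0.26 ± 0.07). The Benjamini-Hochberg adjusted p from edgeR was 0.00281, and the authors' deposited table gave 0.0650. Leaving out riluzole replicate 1 gave a log2 fold change of 0.20, which edgeR did not call (Benjamini-Hochberg adjusted p = 0.0779).

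In the large subunit 10 listed genes fell and 4 rose, of 49 annotated, with a median log2 fold change of -0.25. By adjusted p in the authors' deposited table, 4 of the falls and 2 of the rises passed. With edgeR, TMM left 4 lower and 4 higher calls, and DESeq2 size factors left 1 lower and 4 higher. Over all listed genes, lower calls also dropped, from 2501 to 1656 and 1042. In the large subunit, Mrpl35 (chromosome 6, 71789981 to 71803953) had the smallest adjusted p, going from 1196 and 1266 normalised counts to 934 and 1027 (log2 fold change -0.33 ± 0.06, edgeR Benjamini-Hochberg adjusted p 6.69e-05). Both riluzole libraries lay clear of the controls, as they did for Mrpl9, which went from 1800 and 1646 to 1398 and 1460 (-0.27), and for Mrpl3, from 1645 and 1673 to 1342 and 1488 (-0.23). Mrpl2, which encodes a protein near the peptidyl transferase centre, and Mrpl54 were the most abundant listed large subunit genes per length, at 62.0 and 36.4 FPKM. Mrpl2 fell from 1385 and 1351 to 1189 and 1135, and Mrpl54 from 580 and 584 to 456 and 476, by 0.23 and 0.32 on the log2 scale. The falls of Mrpl48 (-0.36), Mrpl32 (-0.32), Mrpl21 (-0.29), Mrpl37 (-0.27) and Mrpl13 (-0.16) completed the group. Of these, Mrpl21, Mrpl32 and Mrpl48 have a pseudogene copy at 95% identity or more, and Mrpl48 shares 708 exonic bases with Rab6a on the other strand. Mrpl13 shares 330 with Mtbp, which was also lower (-0.30).

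Mrpl15, Mrpl49, Mrpl10 and Mrpl36 ran against the rest of the large subunit. Mrpl15 (chromosome 1, 4843429 to 4855962) rose from 717 and 769 normalised counts to 926 and 941, 1.25-fold (log2 fold change 0.33 ± 0.07), at a Benjamini-Hochberg adjusted p of 0.000301 by edgeR, against 0.0137 in the authors' deposited table. The riluzole libraries were close together and clear of both controls. Mrpl10, part of the stalk that recruits translation factors, went from 735 and 823 to 999 and 906 (log2 fold change 0.29), and Mrpl49 from 369 and 440 to 500 and 535 (0.34). In both genes the controls were further apart than the nearest control and riluzole libraries, and each call rested on single libraries: edgeR did not call Mrpl10 once riluzole replicate 1 was left out (Benjamini-Hochberg adjusted p = 0.0841), nor Mrpl49 once control replicate 1 (0.102) or riluzole replicate 2 (0.0757) was. Mrpl36, the smallest of the 4 rises at 0.27, went from 527 and 484 to 601 and 615; leaving out control replicate 2 or riluzole replicate 2 ended its call in edgeR (Benjamini-Hochberg adjusted p = 0.157 and 0.0774), and the adjusted p in the authors' deposited table was 0.132. All 4 rose under each of the 4 scalings. TMM and DESeq2 factors shift all changes up and FPKM totals shift them by only -0.025, so none of these rises could turn.

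Of the 4 named translation factors only Gfm2 was listed, and Tufm, Tsfm and Gfm1, which act in elongation, were not. Gfm2, whose product splits the ribosome for recycling after termination, had 625 and 558 normalised counts in the controls and 726 and 677 with riluzole. The libraries did not overlap, but the rise of 0.25 on the log2 scale lost its edgeR call when control replicate 2 or riluzole replicate 1 was left out (Benjamini-Hochberg adjusted p = 0.271 and 0.189), and its adjusted p in the authors' deposited table was 0.146.

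Genes of the outer membrane translocase went both ways, 2 lower and 2 higher of 10 annotated. Tomm70a (chromosome 16, 56942066 to 56977068), the receptor for carrier proteins and chaperone-bound clients, fell from 4192 and 4115 normalised counts to 3398 and 3450 (log2 fold change -0.28, edgeR Benjamini-Hochberg adjusted p 3.54e-06). Tomm40 (chromosome 7, 19435238 to 19449363), the channel, fell from 3413 and 3391 to 2845 and 2963 (-0.23). In both genes the replicates lay close together and the groups far apart. Tomm22 (chromosome 15, 79555062 to 79557601), the central receptor that holds the complex together, rose from 1766 and 1637 to 1944 and 2009 (log2 fold change 0.22), at a Benjamini-Hochberg adjusted p of 0.000870 by edgeR, against 0.0269 in the authors' deposited table. Tomm40l, a second channel gene expressed at 2.47 FPKM against 40.0 FPKM for Tomm40, showed the largest rise of all members, from 178 and 188 to 273 and 249. It rose 1.42-fold (log2 fold change 0.51 ± 0.12), at a Benjamini-Hochberg adjusted p of 0.00137 by edgeR, but only 0.0499 in the authors' deposited table. Its exons share 3304 bases with Nr1i3 on the other strand, and whether reads were counted by strand is not given, so reads of the 2 genes cannot be told apart. Nr1i3 was not listed.

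Ratios of read counts within a library compare the RNA of these genes without any scaling. No protein of the complex was measured, and the reads of Tomm40l may include those of Nr1i3. Tomm22 stood at 51.7% and 48.3% of the count of Tomm40 in the controls and at 68.3% and 67.8% with riluzole. Tomm40l stood at 5.21% and 5.55% of it in the controls and at 9.60% and 8.40% with riluzole. Both ratios were higher in each riluzole library than in each control. Under TMM, edgeR still called Tomm40 and Tomm70a lower, and under DESeq2 size factors neither. Both rises were called under each, but these scalings shift all changes up and so favour rises.

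**Figure D2:**
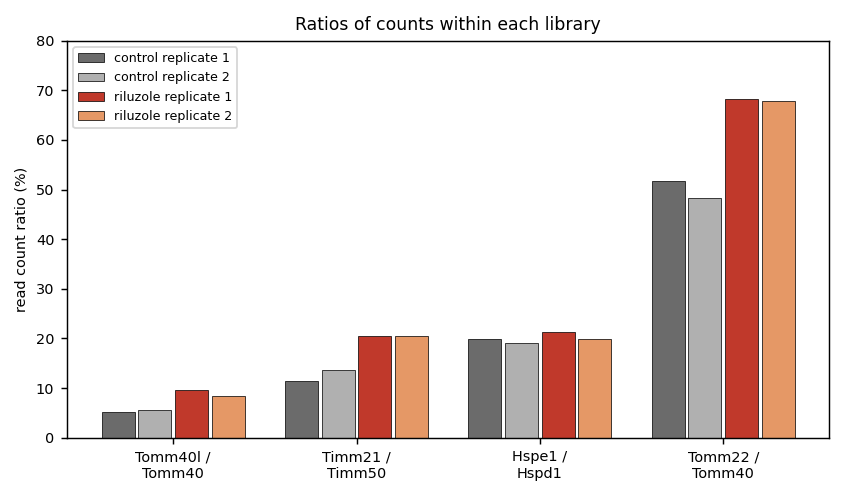
Read count of the first gene as a percentage of that of the second in each library (bars, 1 per library; the axis starts at 0), for 4 pairs of members. The riluzole bars exceed both control bars for Tomm40l, Timm21 and Tomm22 and lie at about the control level for Hspe1 over Hspd1.

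Of the inner membrane translocase genes, 4 of 9 annotated were listed, and 3 fell and 1 rose. Timm22 (chromosome 11, 76297778 to 76307118), the channel through which carriers are inserted, showed the deepest fall of all members, from 824 and 815 normalised counts to 581 and 581. It fell by 29.1% (log2 fold change -0.50 ± 0.07; edgeR Benjamini-Hochberg adjusted p 2.56e-06, and 0.000215 in the authors' deposited table), and the spread within each group was a small part of it. Timm44, which tethers the mitochondrial HSP70 motor to the TIM23 channel, fell from 1984 and 2234 to 1727 and 1710 (-0.30), and Timm50, the TIM23 receptor for presequences, from 1838 and 1773 to 1424 and 1587 (-0.26). Timm21, which links TIM23 to the TOM complex, ran against them. It went from 208 and 242 to 293 and 324, 1.36-fold (log2 fold change 0.44 ± 0.12), and from 11.3% and 13.7% of the count of Timm50 to 20.5% and 20.4%. By edgeR its Benjamini-Hochberg adjusted p was 0.00305, and 0.0706 when riluzole replicate 2 was left out; the authors' deposited table gave 0.0703.

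All 3 listed genes of small TIM chaperones fell, by similar amounts. Timm13 went from 1466 and 1405 normalised counts to 1228 and 1243 (log2 fold change -0.22), Timm10 from 613 and 660 to 510 and 548 (-0.27) and Timm8a1, the mouse counterpart of the human deafness-dystonia gene, from 1027 and 1013 to 930 and 815 (-0.22). The groups did not overlap, and edgeR gave Benjamini-Hochberg adjusted p of 0.00186, 0.00805 and 0.00881. None of the 3 passed under TMM, nor by the adjusted p of 0.0539, 0.122 and 0.118 that the authors' deposited table holds. Timm8a1 also has a near-identical copy. Pmpca, which encodes the substrate-binding subunit of the processing peptidase, had the smallest fall, from 3135 and 3237 to 2942 and 2894. It fell by 8.45% (edgeR Benjamini-Hochberg adjusted p 0.0219). Leaving out control replicate 2 or either riluzole library ended its call, and the adjusted p in the authors' deposited table was 0.129. Pmpca shares 874 exonic bases with Inpp5e on the other strand.

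**Figure D3:**
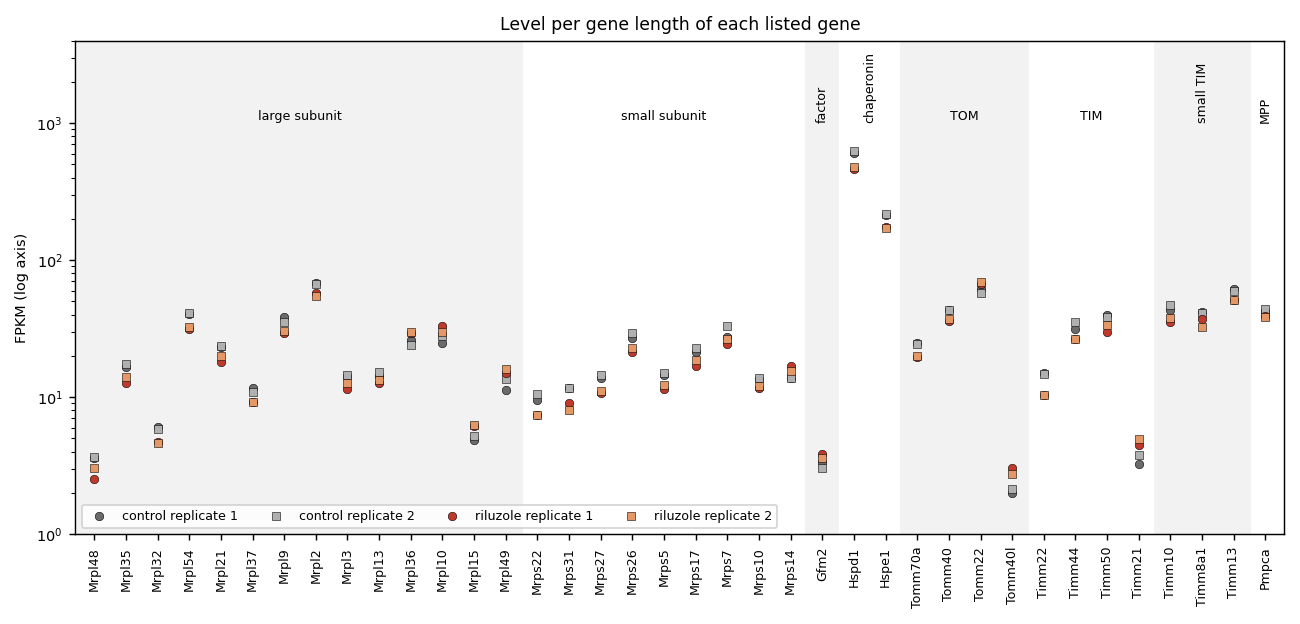
Level per gene length (FPKM, log axis) of the 38 listed genes in each library, grouped by role as in the plot of changes; each point is 1 library. Hspd1 and Hspe1 lie far above the rest, and the lowest mean is that of Tomm40l at 2.47 FPKM.

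Ribosome and import genes were then set side by side. Of 78 annotated ribosome genes 29.5% were listed, and of 28 annotated import genes 42.9%, where 34.1% of all tested genes were; how many of the annotated genes were among those tested is not known. Ribosome genes were the less abundant per length, with a median of 14.0 FPKM against 36.7 FPKM for import genes. With riluzole, 18 ribosome genes fell and 5 rose, and 9 import genes fell and 3 rose, so that 78.3% and 75.0% were lower. The median log2 fold change was -0.27 for the ribosome and -0.23 for import, a difference of -0.04. In riluzole replicate 1 the difference of medians was -0.06 and in riluzole replicate 2 it was -0.02, an SD of 0.03. The difference was thus about the size of the spread between libraries, and it was not tested. Within each class the genes varied, with an SD over genes of 0.26 in the ribosome and 0.32 in import.

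Summed over genes, ribosome members had 25257 and 26130 normalised counts in the controls and 22133 and 23036 with riluzole. Import members summed to 20644 and 20711 in the controls and to 18095 and 18371 with riluzole. With the authors' size factors, both sums were lower in each riluzole library than in each control. TMM and DESeq2 factors shift all changes up, and the sums were not computed under them. The ratio of the sums, which scaling cannot change, was 1.22 and 1.26 in the controls and 1.22 and 1.25 with riluzole, and these ranges overlapped. Among genes with neither a near-identical copy nor an overlapping gene, 3 ribosome members rose and 7 fell, and the difference of medians was -0.01.

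**Figure D4:**
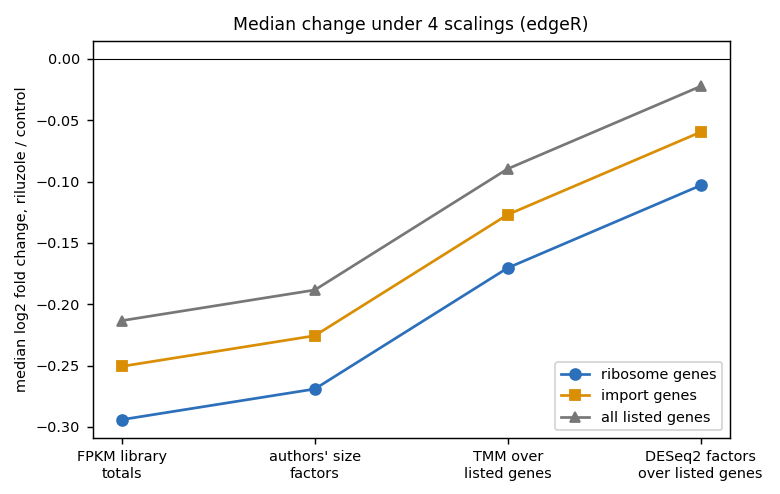
Median log2 fold change, riluzole over control, of the 23 ribosome genes, the 12 import genes and all 4295 listed genes (vertical axis) under 4 scalings of the libraries. All 3 medians shift together, from -0.29, -0.25 and -0.21 with library totals implied by FPKM to -0.10, -0.06 and -0.02 under DESeq2 size factors.

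Genes of 2 other groups of large complexes were read from the same fit for reference. By sign, 94% of 50 listed genes of cytosolic ribosomal proteins were lower, against 58.6% of all 4295 listed genes. Over all listed genes edgeR called 2501 lower and 1772 higher, with a median log2 fold change of -0.19. Of the 50 cytosolic ribosomal genes it called 41 lower and 3 higher, with a median of -0.15. The lower calls were 10 under TMM and 5 under DESeq2 size factors, where the median was 0.02, and 17 without riluzole replicate 1 and 20 without control replicate 2. Of 21 listed nuclear genes of the respiratory chain and ATP synthase, whose partners the mitochondrial ribosome makes, 12 were called higher and 9 lower, with a median of 0.19. The counts were 12 and 3 under TMM (median 0.29) and 12 and 2 under DESeq2 size factors (0.36). Over all listed genes, higher and lower calls were 1779 and 1656 under TMM and 1779 and 1042 under DESeq2 size factors. The differences between these groups and the members were not tested.

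Genes that work with the members but carry other names came from 6 lists. Their listed members had already been chosen by p. Lower calls by edgeR, which was run on listed genes only, amounted to 19.8% of the 12601 genes that the authors tested. The counts per list are thus descriptions and show nothing particular to a list. Of 21 import genes with other names, 5 were listed and called lower by edgeR, 3 of them also in the authors' deposited table. Samm50, which inserts barrel proteins into the outer membrane, went from 3126 and 3111 normalised counts to 2627 and 2532 (log2 fold change -0.27), Chchd4, the import receptor of the intermembrane space, from 1008 and 917 to 737 and 741 (-0.38), and Dnajc19, a partner of the import motor, from 469 and 441 to 363 and 339 (-0.37). In each of them both riluzole libraries lay below both controls. Under TMM 3 of the 5 were called, and under DESeq2 size factors 1. The log2 fold change of Hspa9, the gene of the motor HSP70, was -0.16 with the authors' size factors and 0.0043 with the latter.

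Of 35 genes of mitochondrial translation and ribosome assembly, 8 were listed and called lower, 4 also in the authors' deposited table. Lrpprc, which stabilises mitochondrial messenger RNA, had 3948 and 4093 normalised counts in the controls and 2804 and 2908 with riluzole (log2 fold change -0.49 ± 0.04, edgeR Benjamini-Hochberg adjusted p 2.55e-10). C1qbp went from 4090 and 4461 to 3172 and 3401 (-0.38) and Mterf3, needed for ribosome assembly, from 1118 and 1095 to 808 and 848 (-0.42). The list's median of -0.35 was -0.25 with TMM, with 4 called, and -0.18 under DESeq2 size factors, with 3 called. Of 20 aminoacyl-tRNA synthetase and related genes, 2 were listed and moved apart. Vars2, the valyl-tRNA synthetase gene, rose 1.62-fold from 364 and 384 to 605 and 606, and Gatc, part of the complex that makes glutaminyl-tRNA, fell from 1056 and 1092 to 795 and 879 (-0.36). No member of a list of 5 ribosome subunits under other names was listed.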

How the data were processed

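Polyadenylated RNA of CT26 cells was measured in 2 control (DMSO) and 2 riluzole libraries, grouped by the labels' treatment. Alignment, counting and testing tools in the submitters' processing notes are featureCounts 1.5.0-p3, HISAT2, edgeR and DESeq2, with build mm39; for annotation, strandedness and settings, values were not given in the sources used here. Raw read counts per gene were deposited, with FPKM (counts per gene length and library total) and a normalised signal, each count divided by a size factor of 0.911, 1.19, 1.03 or 0.904, per the file headers and the values. Per the file headers, the authors also computed each gene's p-value, its adjusted p and its log2 fold change. FPKM imply library totals of 15803444 to 20562946 counts.

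The deposited counts of all 4295 listed genes were tested with edgeR 4.0.16 (quasi-likelihood F test, R 4.3.3), using the authors' size factors and no covariates, filter or replicate block. Benjamini-Hochberg adjustment used 12601 genes, the number that returns the authors' adjusted p within a relative tolerance of 0.001 for all 4218 genes where it is below 1. Calls required an adjusted p under 0.05. Selection by p can narrow the fitted spread (median trended dispersion 0.00100), so edgeR p-values may be too small. Chi-square per gene between replicates was 3.59 for the controls and 3.21 for riluzole, more than counting noise gives. Errors are SE of the fit, and medians over genes carry no test.

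Alternatives were TMM, DESeq2 size factors over the listed genes, FPKM library totals, the DESeq2 1.42.0 test, the authors' adjusted p, a mean normalised count of at least 100, each library left out, a replicate block, and genes with neither a copy nor an overlap. Copies (BLAST+ 2.17.0, at least 95% identity over 200 bases) and exon overlaps of at least 50 bases came from GENCODE M21 on GRCm38, where all 38 members matched by gene identifier; 9 had a copy, 15 an overlap and 18 neither. Coordinates of genes are the deposited mm39 ones and those of promoters RefSeq's on GRCm38.p6. Figures were drawn with matplotlib 3.10.9, and tables made with pandas 2.3.3 in Python 3.11.15.

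The members, lists, motifs and comparison sets were chosen with earlier results of these data known. Named by rule were, in each role, the 4 listed genes with the smallest edgeR adjusted p, all that ran against the majority, the 2 of highest FPKM, and the 3 of smallest adjusted p in each related list. Mrpl13, Mrpl21, Mrpl32, Mrpl37, Mrpl48, Mrps10, Mrps27, Mrps31, Hspa9 and the overlapping genes were named after their values were seen.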

Additional observations from a re-analysis of the deposited data

How the results depend on the processing

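Scaling decided most lower calls. With TMM factors over the listed genes, 17 members were called lower (10 ribosome, 5 import), and under DESeq2 size factors 7 (4 ribosome, 1 import), where Mrpl13 and Pmpca changed sign to log2 fold changes of 0.0086 and 0.039. Both scalings centre on genes that were listed because they differed. By adjusted p in the authors' deposited table there were 16 members called lower (9 ribosome, 5 import) and 4 higher (2 ribosome), and the DESeq2 test called 30 of the 38. Genes with neither a copy nor an overlap, 18 in number, gave 13 lower and 5 higher calls (7 and 3 in the ribosome), fewer because fewer genes were counted. FPKM library totals and the filter on low counts kept all 38 calls.

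Leaving out 1 library at a time gave 21 to 28 lower and 6 to 8 higher calls over the members, 12 to 18 and 3 to 4 over the ribosome, and 7 to 9 and 2 to 3 over import. The fits used 3 libraries, and the lone one was assumed to vary like the other group. The ribosome's higher calls were 3 without riluzole replicate 1 or riluzole replicate 2. The median difference between ribosome and import ran from -0.074 (without control replicate 1) to -0.025 (without riluzole replicate 1). Without control replicate 1, Mrpl37 and Mrpl49 lost their call; without control replicate 2, Gfm2, Mrpl13, Mrpl36, Mrps10, Mrps7, Pmpca and Timm10 did; without riluzole replicate 1, Gfm2, Mrpl10, Mrpl13, Mrpl21, Mrpl3, Mrpl48, Mrps10, Mrps14, Mrps7, Pmpca and Timm10; and without riluzole replicate 2, Mrpl36, Mrpl49, Pmpca, Timm21 and Timm8a1.

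The shared replicate numbers were not shown to pair the samples (correlation over 3987 genes of 0.0801 between the replicate differences of the 2 groups). With a replicate block, 29 members were called lower and 9 higher, and the difference of medians was -0.04, so no call changed. Adding Hspd1 and Hspe1 to import gave -0.02; Timmdc1 and Tomm34 were not listed, so leaving them out changed nothing.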

Other observations

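Genes that regulate mitochondrial transcription, and proteases of the organelle, were read from the same fit. Of 15 genes of mitochondrial transcription and its regulators, 6 were listed and called lower by edgeR, 4 also in the authors' deposited table. Lower calls by edgeR, run on listed genes only, amounted to 19.8% of the 12601 genes that the authors tested. Listing itself used p, so the count is a description. Myc, a transcription factor that drives growth and ribosome genes, had 5070 and 5262 normalised counts in the controls and 4497 and 4121 with riluzole (log2 fold change -0.26 ± 0.04, edgeR Benjamini-Hochberg adjusted p 1.87e-05). Pprc1, a coactivator of nuclear respiratory factors, went from 2646 and 2565 to 2189 and 2188 (-0.25), and Tfam, which packages mitochondrial DNA, from 934 and 978 to 762 and 781 (-0.31). Both riluzole libraries lay below both controls in each. Of the factors whose motifs were searched, Nrf1 and Gabpa had log2 fold changes of -0.22 and -0.18, and neither passed under TMM or by the adjusted p of 0.124 and 0.0984 that the authors' deposited table holds. The list kept 3 calls with TMM and 0 of 6 under DESeq2 size factors (edgeR), where its median was -0.09 and its members stayed below 0.

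Of 10 mitochondrial protease genes, 3 were listed. Lonp1, the matrix protease for misfolded and oxidised proteins, went from 18168 and 17361 normalised counts to 13447 and 13505, with the smallest adjusted p of the related genes after that of Lrpprc (log2 fold change -0.40 ± 0.04, edgeR Benjamini-Hochberg adjusted p 5.21e-09). Parl fell by 0.20 on the log2 scale and Htra2, an intermembrane space protease, rose by 0.22. For these 2 the authors' deposited table holds an adjusted p of 0.0877 and 0.0662.

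Neighbouring listed genes did not always share a direction with the members. Tomm70a (log2 fold change -0.28 in the authors' deposited table) overlaps the gene span of Nit2, on the other strand, which was higher (0.50), and Mrpl49 (0.35 there) lies 59 bases from Fau, which was lower (-0.18).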
